A study of Homo sapiens with 12 samples.

Results

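The genes examined here encode the serine/arginine-rich splicing factors (SR proteins, symbols SRSF followed by a number) and the heterogeneous nuclear ribonucleoproteins (hnRNPs, symbols starting HNRNP). They were taken by symbol from the protein-coding genes of the expression table, which gave 39 genes of 78892, of which 12 were SRSF and 27 were HNRNP genes. The RNA, selected by its poly(A) tail and sequenced, came from cultured OCI-Ly7 cells, an established line derived from a human diffuse large B-cell lymphoma. The 12 libraries fell into 4 groups of 3, all harvested on day 5. The first group received both drugs, 5-azacitidine (AZA) at 100 nM daily on days 0 to 4 and an HDAC3 inhibitor (HDAC3i) at 15 µM on days 2 and 4. The second received HDAC3i alone, the third AZA alone, and the fourth the vehicle in place of both. AZA is a cytidine analogue that is incorporated into nucleic acids and depletes DNA methyltransferases, and HDAC3 is a histone deacetylase that works within corepressor complexes. The labels do not name the inhibitor compound, and leave unsaid whether replicate libraries represent different cultures. The p-values therefore measure the spread between these libraries only.

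Splicing factors of both families bind pre-mRNA and steer which exons are kept. SR proteins carry RNA recognition motifs and a tail of arginine-serine repeats, bind exonic enhancers and mostly recruit the spliceosome, while many hnRNPs bind silencers or introns and oppose them. The families are known for controlling their own mRNA through exons that introduce a premature stop, so that excess protein sends its transcript to nonsense-mediated decay. In B cells, splicing of CD45 and of the immunoglobulin heavy chain is among the events that such factors are known to influence.

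Library totals ranged from 35947872 to 36337086 counts, so depth differed little between groups. The defining B cell markers were present throughout: 6 genes summed to 3207 to 3303 CPM (counts per 1000000) with both drugs, 3202 to 3269 with HDAC3i, 2504 to 2541 with AZA and 2366 to 2458 with vehicle. Markers of other lineages were low, but CD3D, CD3E, CD3G, LYZ and CSF1R were called higher in both inhibitor groups against vehicle, and their part in the results was not tested. With vehicle CD3D, CD3G, LYZ and CSF1R averaged 0.0188, 0.0927, 0.0188 and 0.0184 CPM. They passed the count filter only through the inhibitor groups and so had to differ, and their calls add nothing to the levels given here. CD3E averaged 1.03 CPM with vehicle. The 4 T cell markers summed to 11.6 to 13.4 CPM with both drugs, 6.92 to 7.94 with HDAC3i, 1.34 to 1.91 with AZA and 0.939 to 1.28 with vehicle. Of these CD2 was at 0 outside the group with both drugs, where it reached 0.0552 CPM. The 4 monocyte markers summed to 2.59 to 3.29 CPM with both drugs, 1.36 to 2.02 with HDAC3i, 0.139 to 0.389 with AZA and 0.332 to 0.497 with vehicle, with S100A8 at 0 in every library and CD14 not called, and the 4 epithelial markers reached at most 0.111 CPM, with KRT8 and KRT18 at 0. Mitochondrial transcripts took 12.5% to 15.3% of counts with both drugs, 12.1% to 13.0% with HDAC3i, 10.01% to 13.8% with AZA and 9.59% to 10.5% with vehicle. AZA replicate 1, at 13.8%, stood apart from AZA replicates 2 and 3: the chi-square per degree of freedom between libraries was 29.4 and 26.4 for its pairs, against 4.25 for the other pair of that group. The pairs with both drugs were also wide, at 10.3 to 16.9, against 3.58 to 4.96 with HDAC3i and 5.16 to 7.1 with vehicle. The tests share 1 estimate of the spread of each gene over the 4 groups, so they do not follow this difference between groups. The targeted gene HDAC3 averaged 92.8 ± 0.494 CPM with both drugs, 90.1 ± 2.76 with HDAC3i, 85.8 ± 3.28 with AZA and 88.6 ± 0.676 with vehicle (SD, n = 3 each). DNMT1 averaged 770 ± 46.2, 802 ± 14.2, 702 ± 41.7 and 785 ± 8.66 CPM in the same order. Neither gene passed edgeR's quasi-likelihood test against vehicle in any drug group. DNMT1 came close with AZA (log2 fold change -0.16, SE 0.053, adjusted p 0.0551). It was called higher with both drugs than with AZA (0.13, SE 0.053, adjusted p 0.0357).

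Of the 39 genes, 32 had enough counts to be tested, 11 SRSF and 21 HNRNP genes. The other 7 were HNRNPA1L2, HNRNPCL1, HNRNPCL2, HNRNPCL3, HNRNPCL4 and the readthrough gene HNRNPUL2-BSCL2, all at 0 counts in all 12 libraries, and SRSF12, with 8 counts over the 12 libraries and never more than 2 in a library. For a count of 0, up to 3 counts per library remain possible. This limit does not hold for HNRNPA1L2 and HNRNPUL2-BSCL2, which share 100% of their exon bases with other genes. Counting left out reads that overlap several genes, so a 0 in these genes does not measure their RNA. The tested genes were highly expressed: 27 of the 32 averaged 100 CPM or more. Per kilobase of exon, HNRNPA1, a splicing repressor that also shuttles mRNA out of the nucleus, had the highest level in vehicle cells, 411 ± 14.4 CPM per kb. It was followed by HNRNPAB at 306 ± 7.37, the G-run binder HNRNPF at 232 ± 1.59 and the uridine-tract binder HNRNPC at 199.7 ± 3.81 CPM per kb. SRSF2 (SC35), a protein of nuclear speckles, was the most abundant SR gene on this scale, at 148 ± 2.85 CPM per kb, ahead of SRSF3 at 108 ± 1.93 and SRSF7 at 105 ± 1.04, the libraries of the last pair overlapping. The lowest tested genes were SRSF8 at 9.85 ± 0.630, HNRNPLL at 9.74 ± 0.762, HNRNPUL2 at 8.46 ± 0.483 and HNRNPA1L3 at 6.83 ± 0.350 CPM per kb.

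The 250 bases upstream of the RefSeq transcription starts (build GRCh38.p14) were read for 29 of the 32 tested genes, 43 promoters in all, some of them overlapping starts of the same gene. Windows of 4 genes are shown: HNRNPA3 and HNRNPR, which had the most negative inhibitor effects among the hnRNP genes, SRSF4, which was lower in 5 comparisons, and HNRNPLL, which had the most positive inhibitor effect. Each is written 5′ to 3′ on the gene's strand, and capitals mark the E-box CACGTG, the box named CCAAT, and the ETS core CCGGAA, matched on both strands, so that a match on the other strand appears as its reverse complement. A search for TATAAA, the TATA box, found no match in these 4 windows. The count table's annotation starts HNRNPA3, HNRNPR and HNRNPLL further upstream than RefSeq does, so that their windows lie partly or wholly inside the gene spans given below.
HNRNPA3, chr2:177212544-177212793, plus strand: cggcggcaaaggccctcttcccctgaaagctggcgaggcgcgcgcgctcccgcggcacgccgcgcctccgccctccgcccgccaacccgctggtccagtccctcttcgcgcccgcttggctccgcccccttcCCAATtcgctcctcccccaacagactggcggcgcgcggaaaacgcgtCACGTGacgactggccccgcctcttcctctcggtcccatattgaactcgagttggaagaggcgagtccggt
HNRNPR, chr1:23344285-23344534, minus strand: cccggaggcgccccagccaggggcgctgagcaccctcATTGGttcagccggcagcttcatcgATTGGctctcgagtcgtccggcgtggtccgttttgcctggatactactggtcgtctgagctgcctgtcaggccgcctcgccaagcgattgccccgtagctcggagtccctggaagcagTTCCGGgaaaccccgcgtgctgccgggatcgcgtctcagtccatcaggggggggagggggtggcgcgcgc
SRSF4, chr1:29181901-29182150, minus strand: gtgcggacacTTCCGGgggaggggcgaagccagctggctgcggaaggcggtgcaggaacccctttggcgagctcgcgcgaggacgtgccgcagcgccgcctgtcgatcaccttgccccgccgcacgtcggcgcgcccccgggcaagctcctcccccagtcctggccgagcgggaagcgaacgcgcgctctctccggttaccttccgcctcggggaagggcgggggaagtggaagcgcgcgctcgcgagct
HNRNPLL, chr2:38602929-38603178, minus strand: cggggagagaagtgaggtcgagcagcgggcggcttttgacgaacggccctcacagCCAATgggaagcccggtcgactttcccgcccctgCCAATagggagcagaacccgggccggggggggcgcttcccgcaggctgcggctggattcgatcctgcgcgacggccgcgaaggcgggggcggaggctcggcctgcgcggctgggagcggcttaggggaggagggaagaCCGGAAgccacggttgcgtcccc
All 4 windows were rich in CpG, with 34, 25, 36 and 29 CpG dinucleotides in the order shown, and the median over the 43 windows was 24, against 11 over 35116 promoters of the same length. The overlapping windows of SRSF8, which the inhibitor also raised, had 2 each, the fewest of the 43. A CCAAT box lay in 18 of 30 HNRNP windows (60.0%) and in 3 of 13 SRSF windows (23.1%), against 32.0% of all promoters. The E-box lay in 7 of 30 HNRNP windows (23.3%) and in 0 of 13 SRSF windows, against 6.34% of all promoters. TATAAA lay in 3 of 30 HNRNP and 3 of 13 SRSF windows (10.7% of all promoters), and CCGGAA in 5 of 30 and 2 of 13 (14.5%). The 30 HNRNP windows came from 19 genes and the 13 SRSF windows from 10, so these are shares of windows and not of genes. None of the motifs contains another, and these matches describe letters in a window, not bound sites. CACGTG and CCGGAA each hold a CpG, and the set of all promoters was not matched to these windows for CpG or expression. HNRNPLL and HNRNPR both carried a pair of CCAAT boxes and an ETS core. Whether any motif relates to the drug effects was not tested.

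The first question of the design is what the inhibitor alone did. HDAC3i lowered 17 of the 32 tested genes and raised 2 relative to vehicle, and the other 13 did not pass the test. Those lowered were 7 of 11 SRSF (63.6%) and 10 of 21 HNRNP genes (47.6%), and those raised were SRSF8 and HNRNPLL. By the same rule (edgeR's quasi-likelihood test, Benjamini-Hochberg adjusted p under 0.05) 24.9% of all 17869 tested genes were called lower and 26.4% higher. The share called lower was larger among abundant genes: of the 1985 genes averaging 100 CPM or more, 49.8% were called lower and 18.6% higher, and 17 of the 27 SRSF and HNRNP genes of that level (63.0%) were called lower. The median log2 fold change was -0.17 over the 32 genes, -0.13 over the 1985 abundant genes and 0.00 over all tested genes. In 25 of the 32 genes the 3 HDAC3i libraries did not overlap the 3 vehicle libraries, as in 60.1% of all genes. CPM are relative to the whole library, and in bulk RNA fewer cells of a type and less RNA per cell cannot be told apart.

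**Figure D1:**
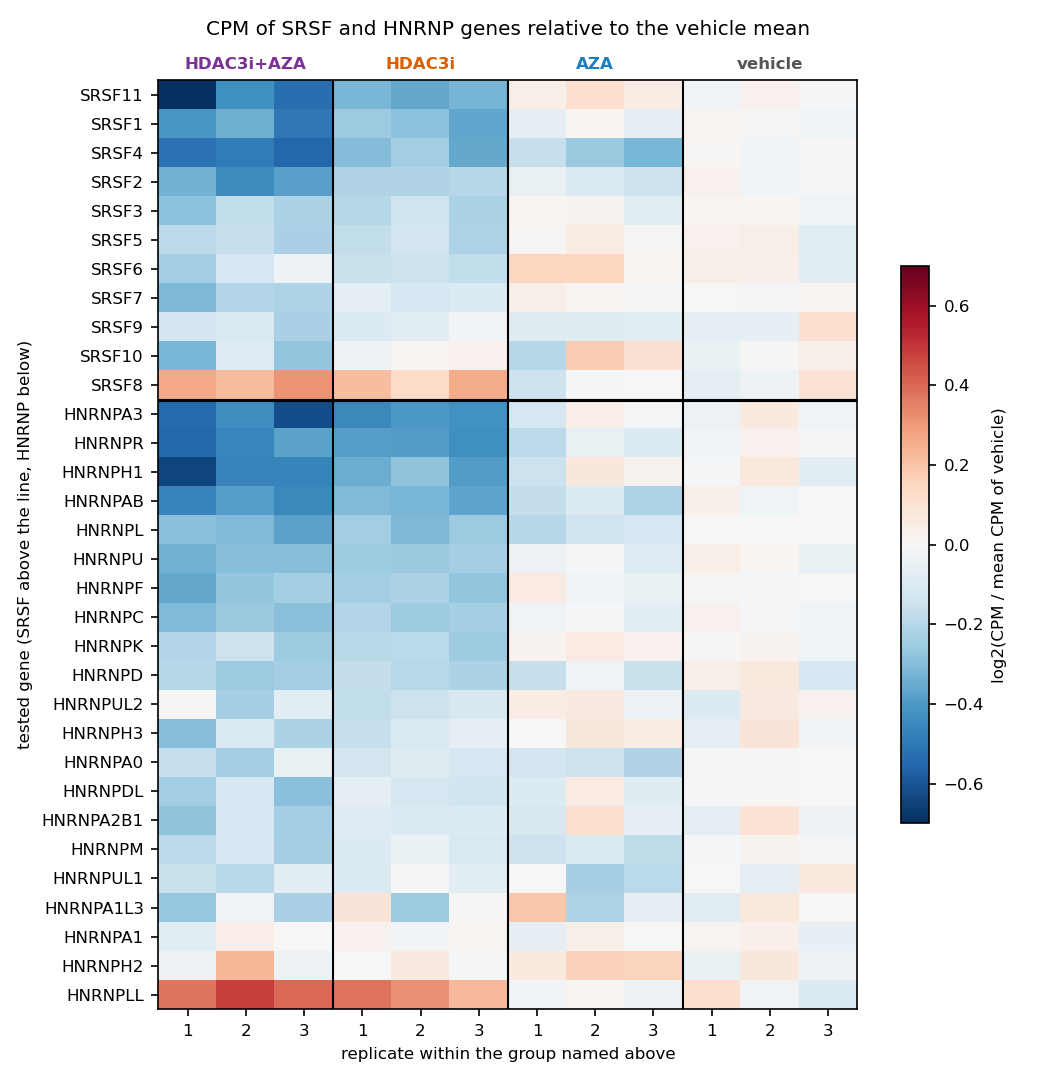
Heat map of CPM of the 32 tested genes in each of the 12 libraries, as log2 of the ratio to the mean of the 3 vehicle libraries (blue lower, red higher), SRSF genes above the line and HNRNP genes below, each family sorted by the HDAC3i effect. The 6 libraries with the inhibitor are blue for most rows and red for SRSF8 and HNRNPLL, while the AZA libraries stay pale apart from rows such as SRSF4 and HNRNPAB.

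Among the SR proteins, SRSF1 (SF2/ASF; chr17:58000919-58007346 in GRCh38), the founding member and a proto-oncogene, measured 166, 162 and 154 CPM in the HDAC3i libraries, against 201, 199 and 194 in the vehicle libraries. All 3 inhibitor libraries lay below all 3 vehicle libraries, with a log2 fold change of -0.30 (SE 0.052) and an adjusted p of 2.46e-05. SRSF11 (p54; chr1:70205682-70253052), an SR protein that contacts U2AF, measured 227, 221 and 226 CPM with HDAC3i, against 279.9, 289 and 281 with vehicle, a log2 fold change of -0.33 (SE 0.060) and an adjusted p of 3.69e-05. The groups again did not overlap, and SRSF11 had the most negative value of the SR genes. SRSF4 (SRp75; chr1:29147743-29181900) measured 139, 145 and 134 CPM with HDAC3i and 173, 169 and 172 with vehicle, a log2 fold change of -0.30 (SE 0.052) and an adjusted p of 2.4e-05. The other lowered SR genes had smaller effects: SRSF2 at -0.21 (SE 0.048), SRSF3, which links splicing to mRNA export, at -0.19 (SE 0.049), SRSF5 at -0.17 (SE 0.049) and SRSF6 at -0.16 (SE 0.056) on the log2 scale. Of these, SRSF6 rested on single libraries, with an adjusted p of 0.0191 that was 0.0581 without HDAC3i replicate 3, 0.0801 without vehicle replicate 1 and 0.0644 without vehicle replicate 2. With genes required to reach 5 CPM in 3 libraries, SRSF5 and SRSF6 no longer passed, with adjusted p of 0.0786 and 0.178. SRSF7, whose RNA-binding part includes a zinc knuckle, SRSF9 and SRSF10, which becomes a general splicing repressor when dephosphorylated, were not called. SRSF7 measured 406, 390.3 and 398 CPM with HDAC3i and 425, 421 and 429.7 with vehicle, and SRSF9 178, 181 and 188 CPM with HDAC3i and 182, 183 and 206 with vehicle. Their log2 fold changes were -0.10 (SE 0.048) and -0.06 (SE 0.054). SRSF10 measured 389.9 ± 9.18 CPM with HDAC3i and 389 ± 11.8 with vehicle (SD, n = 3 each), and the 95% interval of its log2 fold change ran from -0.13 to 0.14.

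The hnRNP genes with the most negative effects were HNRNPA3 and HNRNPR, whose promoters are printed above. HNRNPA3 (chr2:177212694-177226106), a relative of HNRNPA1 that binds mRNA trafficking elements, measured 338, 349.6 and 344 CPM with HDAC3i, against 449, 484 and 453 with vehicle. The groups were far apart, with a log2 fold change of -0.43 (SE 0.055) and an adjusted p of 3.11e-07. HNRNPR (chr1:23303771-23344336), a relative of SYNCRIP that acts in mRNA transport and stability, measured 473, 471 and 459 CPM with HDAC3i and 608, 632 and 616 with vehicle, a log2 fold change of -0.40 (SE 0.052) and an adjusted p of 2.7e-07. Of the G-run binders, HNRNPH1 was lower at 599, 629 and 583 CPM with HDAC3i, against 761, 805 and 726 with vehicle (log2 fold change -0.34, SE 0.060, adjusted p 3.28e-05), and HNRNPF was lower at -0.25 (SE 0.049). Their relatives did not pass the test: HNRNPH3 was at -0.11 (SE 0.055) and the X-linked HNRNPH2 at 0.02 (SE 0.065). Among the relatives of HNRNPD (AUF1), which binds AU-rich elements, HNRNPAB was at -0.33 (SE 0.049) and HNRNPD at -0.19 (SE 0.054), both called, and HNRNPDL at -0.11 (SE 0.053), not called. HNRNPD lost its call where genes had to reach 5 CPM in 3 libraries, with an adjusted p of 0.0642. HNRNPAB measured 524, 520.4 and 503 CPM with HDAC3i and 666, 635 and 647 with vehicle, HNRNPD 724, 709 and 698 CPM with HDAC3i and 836, 856 and 745 with vehicle. Other called genes were HNRNPL, the CA-repeat binder, at -0.27 (SE 0.048), the nuclear scaffold gene HNRNPU (SAF-A) at -0.25 (SE 0.047), HNRNPC at -0.23 (SE 0.046) and the poly(C) binder HNRNPK at -0.21 (SE 0.047). HNRNPK measured 771, 774 and 742 CPM with HDAC3i and 885, 896 and 864 with vehicle, so its gap was small beside its level, and HNRNPU measured 969, 963 and 975 CPM with HDAC3i and 1183, 1161 and 1109 with vehicle.

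HNRNPA1, the most abundant gene of both families, did not pass the test. It measured 2812, 2717 and 2785 CPM in the HDAC3i libraries and 2792, 2820 and 2640 in the vehicle libraries, and the HDAC3i values lay within the vehicle range. Its log2 fold change was 0.01 (SE 0.050), with a 95% interval of -0.09 to 0.11 that does not reach the values of HNRNPA3 or HNRNPR. HNRNPA1 and the near-identical HNRNPA1L3 each had fractional counts, from reads that also match elsewhere, in 11 of the 12 libraries. Which places shared these reads was not traced. The level of HNRNPA1L3, 12.7 ± 1.53 CPM with HDAC3i and 13.1 ± 0.674 with vehicle (SD, n = 3 each), is therefore uncertain. HNRNPA2B1, another relative that binds trafficking elements and N6-methyladenosine-marked RNA, had 1799, 1784 and 1791 CPM with HDAC3i and 1824, 2050 and 1871 with vehicle. Its libraries did not overlap, but the difference of -0.10 (SE 0.058) did not pass, with an adjusted p of 0.173. HNRNPA0, HNRNPM, HNRNPUL1 and HNRNPUL2 had log2 fold changes of -0.11, -0.08, -0.06 and -0.15 and were not called.

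Only 2 of the 32 genes were higher with the inhibitor. HNRNPLL (chr2:38561969-38603586), a relative of HNRNPL that represses variable exons of CD45 and is known from activated T cells and plasma cells, measured 75.1, 72.0 and 67.5 CPM with HDAC3i and 62.7, 56.9 and 53.8 with vehicle. All inhibitor libraries lay above all vehicle libraries, with a log2 fold change of 0.31 (SE 0.061) and an adjusted p of 0.000127. Its relative HNRNPL moved the other way, at -0.27. SRSF8, an expressed retrocopy of SRSF2, measured 49.2, 46.5 and 50.8 CPM with HDAC3i, against 40.4, 41.3 and 45.5 with vehicle. The gap between the groups was narrow, the log2 fold change was 0.20 (SE 0.064), and the adjusted p of 0.00902 became 0.0583 without HDAC3i replicate 3 and 0.0647 without vehicle replicate 1. SRSF2 itself was lower, as given above.

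**Figure D2:**
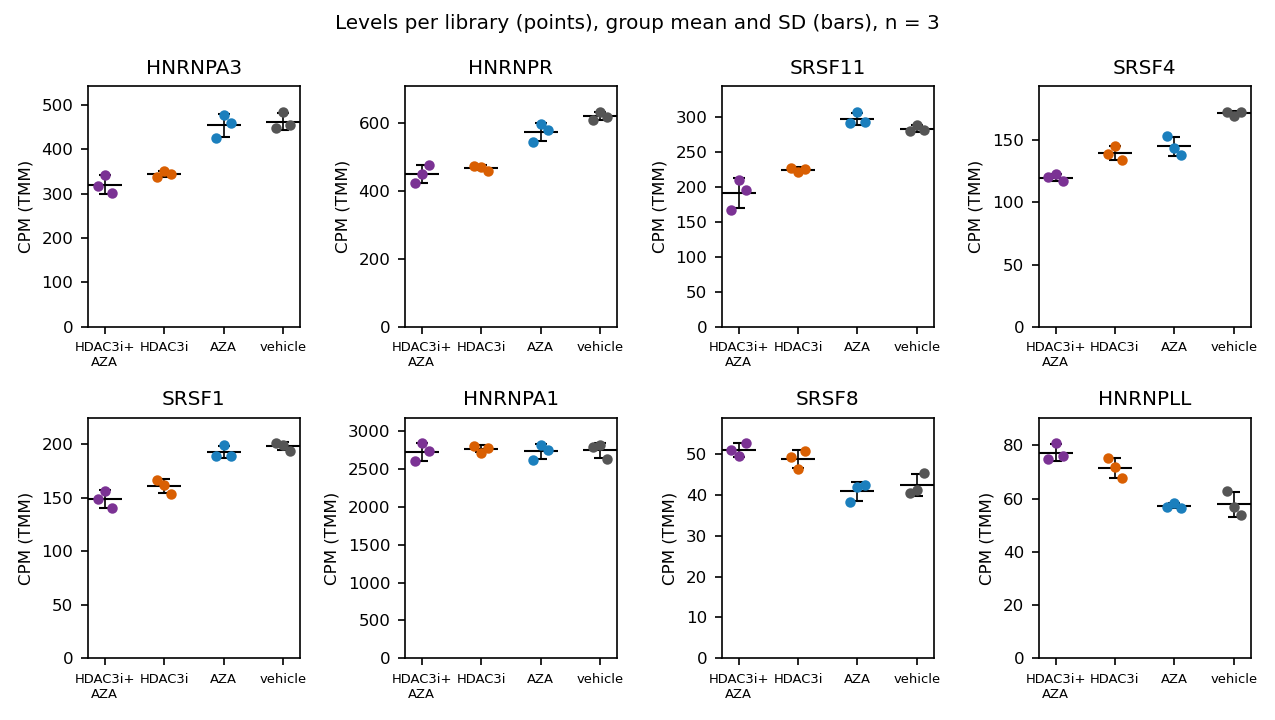
CPM of 8 genes in each library (points) with the mean and SD of each group (bars, n = 3), on axes that start at 0. HNRNPA3, HNRNPR, SRSF11, SRSF4 and SRSF1 are lower in both inhibitor groups, HNRNPA1 overlaps between all 4 groups, and SRSF8 and HNRNPLL are higher in both inhibitor groups.

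AZA alone changed few of these genes. It lowered 4 of the 32 (SRSF4, HNRNPAB, HNRNPL and HNRNPA0) and raised 0 relative to vehicle by edgeR's quasi-likelihood test, against 4.75% of all tested genes called lower and 4.31% higher, and 12.2% lower among abundant genes. At an unadjusted p under 0.05, 9 were lower and 0 higher, and DESeq2 called 5 lower and 0 higher. The median log2 fold change was -0.02 over the 32 genes and 0.00 over all tested genes. SRSF4 measured 153, 143 and 138 CPM with AZA, below all vehicle libraries at 173, 169 and 172, with a log2 fold change of -0.24 (SE 0.052) and an adjusted p of 0.00260, and it passed in each of the 19 alternative analyses. HNRNPAB measured 577, 608 and 559 CPM with AZA and 666, 635 and 647 with vehicle. HNRNPL measured 243, 253 and 257 CPM with AZA and 278, 279 and 279.6 with vehicle. HNRNPA0, a relative of HNRNPA1 that is phosphorylated under stress, measured 425, 420.3 and 403 CPM with AZA and 461, 468 and 466 with vehicle. None of these 3 genes had overlapping libraries, and in the order given their log2 fold changes were -0.16 (SE 0.049), -0.15 (SE 0.048) and -0.16 (SE 0.051). Their adjusted p were close to the threshold, at 0.0381, 0.0460 and 0.0445, and the calls of HNRNPAB, HNRNPL and HNRNPA0 were lost in 11, 14 and 12 of the 19 alternatives. Without AZA replicate 3 they had adjusted p of 0.164, 0.0661 and 0.167, and without vehicle replicate 1 of 0.166, 0.122 and 0.107. Leaving out AZA replicate 1, the library that stood apart, gave 0.0723 for HNRNPAB and 0.138 for HNRNPL, and HNRNPUL1 then passed at 0.0167. The count of 4 became 1 when any single HDAC3i or vehicle library or AZA replicate 3 was left out, and 2 without AZA replicate 2. The HDAC3i libraries enter this comparison only through the shared estimate of the spread. In 9 of the 32 genes the AZA and vehicle libraries did not overlap, against 25.7% of all genes. HNRNPA3, which had the most negative value under HDAC3i, measured 426, 478 and 458 CPM with AZA, within the range of vehicle apart from 1 lower library.

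More genes passed with both drugs than with either alone. Relative to vehicle, 25 of the 32 genes were lower and 2 higher (9 of 11 SRSF and 16 of 21 HNRNP genes lower, SRSF8 and HNRNPLL higher), against 27.5% of all tested genes called lower and 29.6% higher. Among abundant genes 53.5% were lower, and 25 of the 27 SRSF and HNRNP genes of 100 CPM or more (92.6%) were. The median log2 fold change was -0.22 over the 32 genes, -0.16 over abundant genes and 0.01 over all tested genes, and libraries did not overlap in 27 of the 32 genes, as in 60.4% of all genes. Without the 2 libraries of highest mitochondrial share, combination replicate 3 and AZA replicate 1, 25 genes were again lower and 2 higher. SRSF11 measured 168, 211 and 197 CPM with both drugs, against 279.9, 289 and 281 with vehicle, a log2 fold change of -0.56 (SE 0.060) and an adjusted p of 7.42e-09. HNRNPA3 measured 317, 342 and 301 CPM with both drugs, against 449, 484 and 453 with vehicle (log2 fold change -0.53, SE 0.055). HNRNPH1 measured 489, 552 and 552 CPM with both drugs, against 761, 805 and 726 with vehicle (log2 fold change -0.53, SE 0.061). In all 3 genes every library with both drugs lay below every vehicle library, and the same held for SRSF4. SRSF4 measured 120.0, 122 and 117 CPM with both drugs, the tightest of these groups, against 173, 169 and 172 with vehicle, a log2 fold change of -0.52 (SE 0.052) and an adjusted p of 2.81e-09. HNRNPR was at -0.46, HNRNPAB at -0.43, SRSF1 at -0.42 and SRSF2 at -0.38 on the log2 scale. HNRNPLL measured 74.8, 80.8 and 76.0 CPM with both drugs, against 62.7, 56.9 and 53.8 with vehicle, a log2 fold change of 0.42 (SE 0.061) and an adjusted p of 1.53e-06, and SRSF8 was at 0.27 (SE 0.064).

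The 5 genes not called with both drugs were HNRNPA1, HNRNPA1L3, HNRNPH2, HNRNPUL2 and SRSF6, the last with an adjusted p of 0.0571 that was 0.0164 without combination replicate 3, 0.0475 without AZA replicate 3 and 0.0255 without vehicle replicate 3. HNRNPA1 again overlapped vehicle, at 2609, 2843 and 2747 CPM with both drugs and 2792, 2820 and 2640 with vehicle, with a log2 fold change of -0.01 (SE 0.050). The weakest of the lowered genes also turned on single libraries. HNRNPUL1, with an adjusted p of 0.0409, had 0.0937 and 0.113 without combination replicate 1 or 2, 0.0504 without HDAC3i replicate 3, and 0.0774 and 0.168 without vehicle replicate 1 or 3. SRSF9, at 0.0161, had 0.0862 without combination replicate 3 and 0.152 without vehicle replicate 3. HNRNPA0, at 0.0138, had 0.0722 without combination replicate 2, and SRSF10, at 0.00762, had 0.0541 without combination replicate 1. Where genes had to reach 5 CPM in 3 libraries, 19 of the 32 were lower in place of 25, against 34.3% of the 10382 genes kept by that filter. For HDAC3i against vehicle the same filter left 14 lower in place of 17, against 30.0%.

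**Figure D3:**
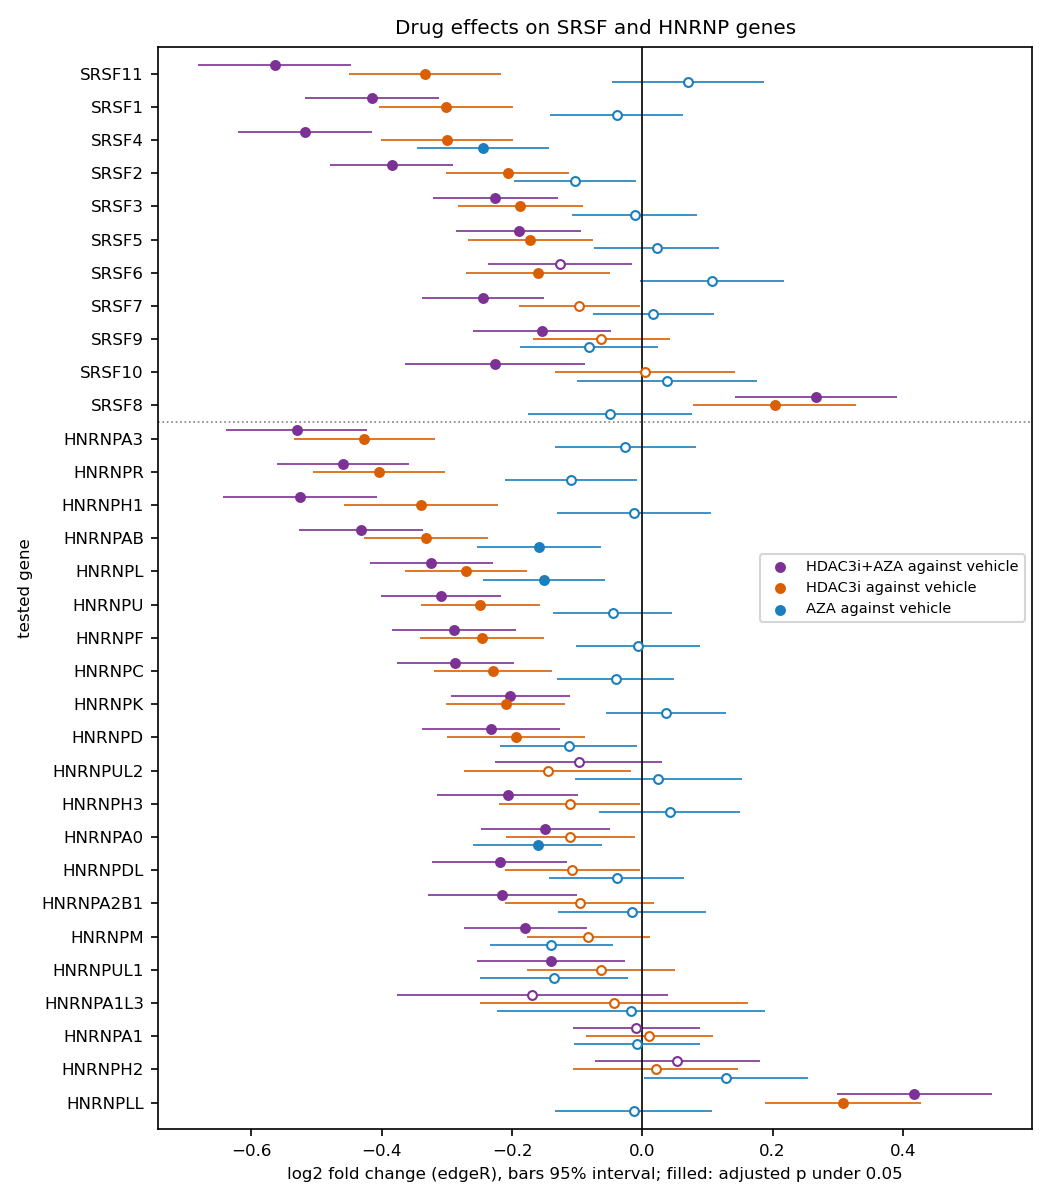
Log2 fold changes against vehicle of the 32 tested genes for both drugs (purple), HDAC3i (orange) and AZA (blue). Bars are the 95% interval by the normal distribution, and filled points have an adjusted p under 0.05 by the quasi-likelihood test. Purple points lie at or left of orange ones for most genes, blue points lie near 0, and HNRNPLL and SRSF8 lie to the right with the inhibitor.

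The inhibitor effect was measured a second time, in libraries that share none with the first, by setting both drugs against AZA. With the inhibitor added to AZA, 21 of the 32 genes were lower and 2 higher, against 25.1% of all tested genes lower and 28.7% higher, and 47.1% lower among abundant genes. Libraries with both drugs and with AZA did not overlap in 24 of the 32 genes, as in 57.2% of all genes. The median log2 fold change was -0.22 over the 32 genes, -0.11 over abundant genes and 0.01 over all tested genes. Of the 17 genes lowered by the inhibitor alone, 16 were also among the 21 lowered here, HNRNPD being the exception at -0.12 (SE 0.054) and an adjusted p of 0.0642. The 5 genes called only here were SRSF7, SRSF10, HNRNPA2B1, HNRNPDL and HNRNPH3, and whether their effects differed between the 2 settings is given by the interaction below. Signs matched in 28 of the 32 genes, with r = 0.87 and rho = 0.80 across genes, as a description of 32 genes measured in the same libraries. SRSF11 had the most negative value, with 168, 211 and 197 CPM with both drugs and 292, 308 and 294 with AZA, a log2 fold change of -0.63 (SE 0.060) and an adjusted p of 1.09e-09. HNRNPH1 was at -0.51 (SE 0.061), HNRNPA3 at -0.50 (SE 0.055), SRSF1 at -0.38 (SE 0.052) and HNRNPR at -0.35 (SE 0.052). The same 2 genes were higher, HNRNPLL with 74.8, 80.8 and 76.0 CPM with both drugs and 57.0, 58.3 and 56.5 with AZA (0.43, SE 0.061), and SRSF8 at 0.32 (SE 0.064). HNRNPA2B1 and HNRNPDL lost their calls without AZA replicate 2, at adjusted p of 0.0654 and 0.0567. HNRNPA1 was at -0.0012 (SE 0.050), not called in this setting either.

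By edgeR's quasi-likelihood test, adding AZA to the inhibitor lowered 4 of the 32 genes: SRSF4, SRSF11, SRSF2 and SRSF10. DESeq2 called 6 lower, adding SRSF7 and HNRNPH1, and 8 were lower at an unadjusted p under 0.05. In edgeR 2.83% of all tested genes were lower and 4.51% higher in this comparison, and 6.55% of abundant genes were lower. Libraries of the groups did not overlap in 12 of the 32 genes, against 25.0% of all genes. The median log2 fold change was -0.07 over the 32 genes, -0.02 over abundant genes and 0.01 over all tested genes. The number higher was 0 by edgeR, 0 at an unadjusted p under 0.05 and 0 by DESeq2. SRSF7 was at -0.15 (SE 0.048) with an adjusted p of 0.0575 and passed in 7 of the 19 alternatives, at 0.00689 by DESeq2, 0.0290 without combination replicate 2 and 0.0345 without AZA replicate 1. HNRNPH1 was at -0.19 (SE 0.060) with an adjusted p of 0.0605 and passed in 6, at 0.0302 by DESeq2, 0.0299 without combination replicate 2 and 0.0216 without AZA replicate 1. HNRNPDL passed in 1 alternative, at 0.0493 without combination replicate 2. SRSF4 measured 120.0, 122 and 117 CPM with both drugs, below all HDAC3i libraries at 139, 145 and 134, with a log2 fold change of -0.22 (SE 0.052) and an adjusted p of 0.00963, close to its value of -0.24 for AZA without the inhibitor. Without HDAC3i replicate 2 its adjusted p was 0.0778. SRSF2 measured 350.1, 324 and 338 CPM with both drugs and 381, 381 and 383 with HDAC3i (-0.18, SE 0.048), without overlap. SRSF10 measured 311, 365 and 321 CPM with both drugs and 379, 394 and 396 with HDAC3i (-0.23, SE 0.070), and SRSF11 measured 168, 211 and 197 CPM with both drugs and 227, 221 and 226 with HDAC3i (-0.23, SE 0.060). In these genes too every library with both drugs was below every HDAC3i library. With single libraries left out the number of lowered genes was 1 without HDAC3i replicate 1, 2 or 3, 2 without combination replicate 1 or 3, and 6 without combination replicate 2 or AZA replicate 1. SRSF11 had an adjusted p of 0.146 without combination replicate 1, which held its lowest value, and of 0.0727 without HDAC3i replicate 1 or 3. SRSF10, the weakest, had 0.210 without combination replicate 1 and lost its call in 10 of the 19 alternatives. SRSF2 lost its call without any of the 3 HDAC3i libraries or combination replicate 2 or 3, and had its highest adjusted p, 0.0924, without HDAC3i replicate 3.

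Whether the AZA effect differed between cells with and without the inhibitor was tested as an interaction. None of the 32 genes passed (0 of 32 by edgeR, 3 at an unadjusted p under 0.05, and 1 by DESeq2), against 0.453% of all tested genes called lower and 0.263% higher. The interaction values ran from -0.30 for SRSF11 to 0.12 for HNRNPLL on the log2 scale. SRSF11 had an adjusted p of 0.0903, with an AZA effect of -0.23 on top of the inhibitor and 0.07 without it, and SRSF10 had -0.27 (SE 0.099) and an adjusted p of 0.231. Without combination replicate 2 their adjusted p were 0.00534 and 0.0393, and without AZA replicate 1 SRSF10 had 0.0165. DESeq2 gave SRSF11 an adjusted p of 0.0190. For SRSF4 the 95% interval of the interaction ran from -0.12 to 0.17. In the 2 AZA comparisons, which share no library, signs matched in 25 of 32 genes, r was 0.23 and rho 0.15 across genes, and SRSF4 was the only gene called in both.

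**Figure D4:**
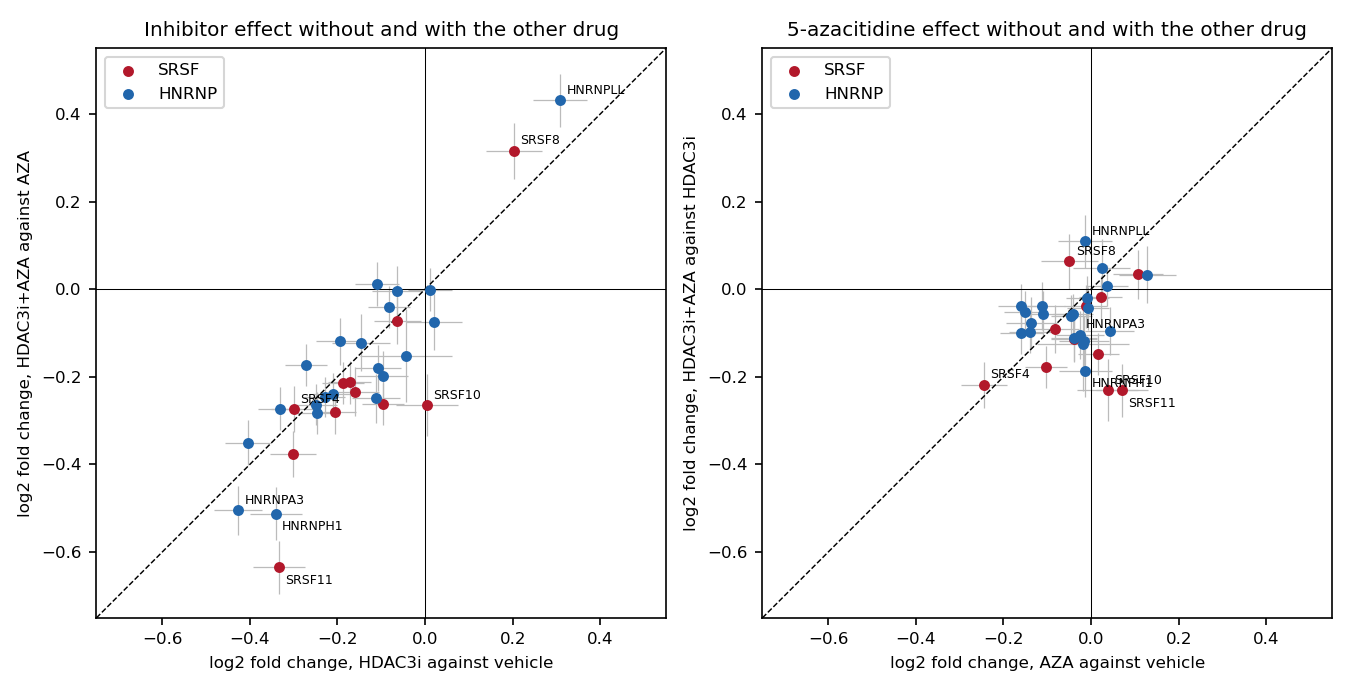
Log2 fold change of each drug without the other (horizontal) and with it (vertical) for the 32 tested genes, bars being 1 SE and the dashed line equality. Inhibitor effects line up along the diagonal, with SRSF11, SRSF10 and HNRNPH1 below it, while AZA effects cluster near 0, with SRSF4 low on both axes.

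Summed over the 11 tested SRSF genes, the family took 2952 ± 91.4 CPM with both drugs, 3187 ± 29.1 with HDAC3i, 3537 ± 80.4 with AZA and 3568 ± 20.7 with vehicle (SD, n = 3 each). The libraries with both drugs, at 2868 to 3049, lay below those with HDAC3i, at 3160 to 3218, and both lay below the vehicle libraries, at 3544 to 3581, while the AZA libraries, at 3474 to 3628, overlapped them. The 21 HNRNP genes took 12583 ± 367 CPM with both drugs, 13141 ± 96.0 with HDAC3i, 14287 ± 472 with AZA and 14713 ± 348 with vehicle. Relative to vehicle, the SRSF sum was changed by -17.3% with both drugs, -10.7% with HDAC3i and -0.866% with AZA, and the HNRNP sum by -14.5% with both drugs, -10.7% with HDAC3i and -2.89% with AZA. Without HNRNPA1, the gene with the most counts and with no call in any comparison, the HNRNP sum was changed by -17.7% with both drugs, -13.3% with HDAC3i and -3.43% with AZA.

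Other genes of the splicing pathway were read as lists, also chosen with earlier results known, and are described by counts. Over all tested genes 24.9% were lower and 26.4% higher with HDAC3i, and 27.5% lower and 29.6% higher with both drugs, while 49.8% of abundant genes were lower with HDAC3i and 53.5% with both drugs. The SR-related proteins, which carry arginine-serine repeats without being SRSF genes, had 20 of 26 genes lower with HDAC3i and 25 of 26 with both drugs, with median log2 fold changes of -0.24 and -0.36. In both comparisons 0 were higher by edgeR, 0 at an unadjusted p under 0.05 and 0 by DESeq2. SFSWAP, a regulator that controls its own splicing, averaged 81.9 ± 2.62 CPM with HDAC3i and 114 ± 0.764 with vehicle (log2 fold change -0.48, SE 0.053), and RBM25, a regulator of alternative splicing, 184 ± 8.83 CPM with HDAC3i and 244 ± 6.76 with vehicle (-0.41, SE 0.059). Of the kinases that phosphorylate SR proteins and the importin TNPO3, which carries them into the nucleus, 7 of 11 were lower with HDAC3i and 9 of 11 with both drugs. CLK1 averaged 24.1 ± 0.624 CPM with HDAC3i and 37.5 ± 1.98 with vehicle (-0.64, SE 0.070), and SRPK1 48.9 ± 1.14 CPM with HDAC3i and 73.7 ± 0.844 with vehicle (-0.59, SE 0.055), larger effects than in any SRSF gene. Of the arginine methyltransferases, which modify many hnRNPs, 7 of 9 tested were lower and 1, PRMT2, was higher in both comparisons. PRMT1, the main one of them, averaged 213 ± 2.67 CPM with HDAC3i and 294 ± 14.7 with vehicle (-0.46, SE 0.052), and PRMT3 47.4 ± 3.14 CPM with HDAC3i and 73.1 ± 2.83 with vehicle (-0.62, SE 0.069).

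HnRNPs with other symbols and related RNA-binding proteins had 19 of 29 tested genes lower with HDAC3i and 20 of 29 with both drugs, with medians of -0.22 and -0.27. FUBP1, which binds single-stranded DNA and RNA and is known as a regulator of MYC, averaged 209.7 ± 1.89 CPM with HDAC3i and 312 ± 11.6 with vehicle (-0.57, SE 0.054), and TARDBP (TDP-43) 314 ± 7.10 CPM with HDAC3i and 395 ± 9.49 with vehicle (-0.33, SE 0.048). The core spliceosome had 39 of 55 genes lower with HDAC3i and 42 of 55 with both drugs, with medians of -0.23 and -0.24. The shares lower were 24.9% of all and 49.8% of abundant genes with HDAC3i, and 27.5% of all and 53.5% of abundant genes with both drugs. Its genes of smallest p were U2AF2, which recognises the polypyrimidine tract, at -0.42 (SE 0.051) and the U5 component SNRNP40 at -0.36 (SE 0.049). Nonsense-mediated decay and exon junction genes had 13 of 15 lower with HDAC3i and 14 of 15 with both drugs, RBM8A being the gene that was higher in each. UPF1, the helicase of the pathway, averaged 131 ± 3.53 CPM with HDAC3i and 182 ± 5.12 with vehicle (-0.47, SE 0.049). With AZA alone 2 of 26 SR-related, 1 of 11 kinase and importer, 2 of 9 methyltransferase, 6 of 29 other hnRNP, 5 of 55 spliceosome, 3 of 15 decay and 1 of 9 tissue-restricted genes were lower, against 4.75% of all tested genes and 12.2% of abundant genes. Of the 154 list genes 0 were higher with AZA by edgeR's test, 8 at an unadjusted p under 0.05 and 3 by DESeq2. Leaving out single libraries moved the AZA counts of the spliceosome between 2 and 9, those of the other hnRNPs between 3 and 7 and those of the decay genes between 0 and 3.

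The last list held regulators known for restriction to certain tissues. Of 24 listed, 9 were tested, and 6 of the 9 were higher and 1 (MBNL3) lower with HDAC3i, with a median log2 fold change of 0.20. Of all tested genes 26.4% were higher and 24.9% lower. With both drugs 5 of the 9 were higher and 2 lower than with vehicle, against 29.6% and 27.5% of all tested genes. Relative to AZA, both drugs had 6 higher and 3 lower, against 28.7% and 25.1%. CELF2, a regulator of lymphocyte and brain splicing, averaged 44.7 ± 3.02 CPM with both drugs, 43.2 ± 0.795 with HDAC3i, 24.1 ± 1.81 with AZA and 20.6 ± 1.29 with vehicle, a log2 fold change of 1.07 (SE 0.072) for HDAC3i against vehicle. RBM20, known for splicing of titin in heart muscle, averaged 5.44 ± 0.820 CPM with both drugs, 4.29 ± 0.164 with HDAC3i, 0.686 ± 0.241 with AZA and 0.489 ± 0.0340 with vehicle (HDAC3i against vehicle 3.12, SE 0.216). A gene that passed the filter only through the groups where it was high had to differ, so these counts do not describe the 24. MYC, whose protein binds the CACGTG E-box, averaged 313 ± 25.9 CPM with both drugs, 315 ± 7.58 with HDAC3i, 213 ± 9.86 with AZA and 252 ± 10.0 with vehicle. It was higher with HDAC3i (0.32, SE 0.057, adjusted p 3.19e-05) and lower with AZA (-0.24, SE 0.057, adjusted p 0.00607).

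**Figure D5:**
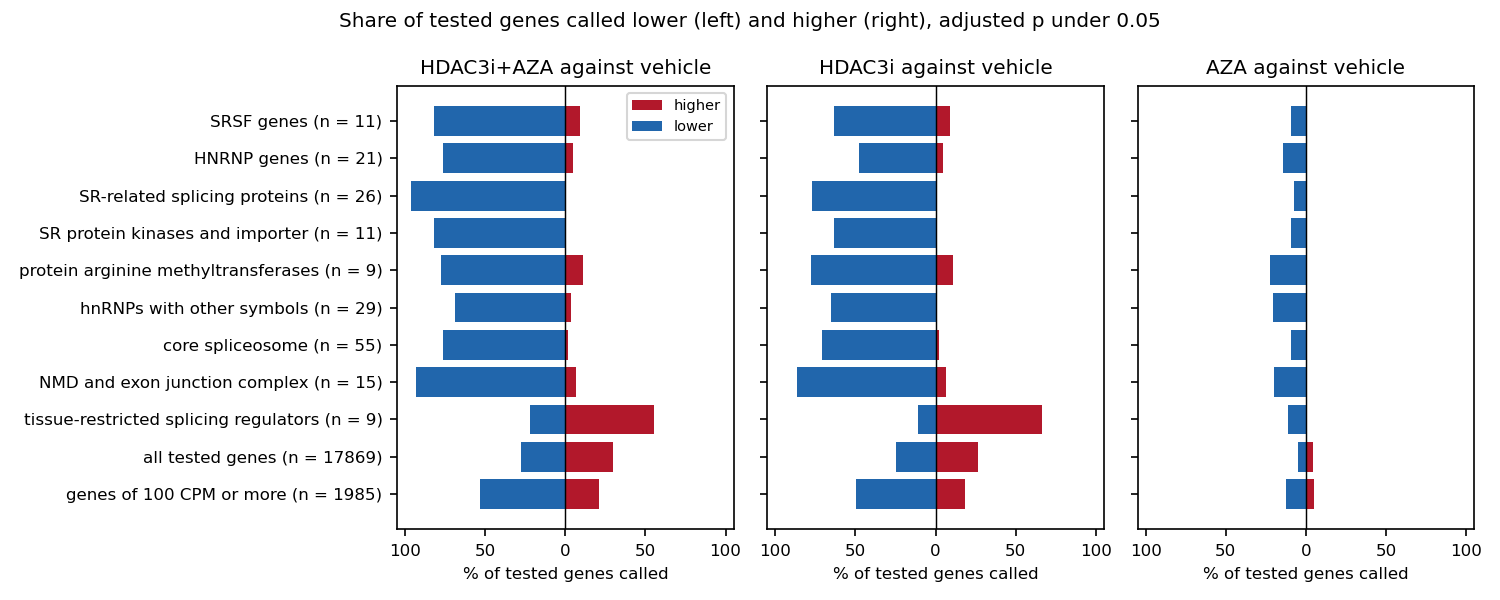
Percent of tested genes called lower (blue, to the left) and higher (red, to the right) at an adjusted p under 0.05, for SRSF and HNRNP genes, 7 related lists, all 17869 tested genes and the 1985 genes of 100 CPM or more, against vehicle. With the inhibitor most lists extend further left than all genes and than abundant genes. With HDAC3i alone the HNRNP genes, at 47.6% lower, stay below the 49.8% of abundant genes. The tissue-restricted list extends further to the right, but holds only the 9 of 24 genes that passed the count filter.

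What a count can show of these genes has limits. Counting ignored strand and left out reads that overlap more than 1 gene, and several members share exon bases with neighbours or antisense genes: 46.7% of exon bases in SRSF9, 44.7% in HNRNPA3, 44.3% in HNRNPUL2, 35.1% in SRSF1, 27.7% in SRSF2 and 19.1% in HNRNPU. For these the level counts only the unshared bases. HNRNPA3, HNRNPA1 and HNRNPK had fractional counts, from reads that also match elsewhere, in 12, 11 and 10 of the 12 libraries. Processed pseudogenes took little of the family counts: those of HNRNPA1 took 0.451% with both drugs, 0.459% with HDAC3i, 0.458% with AZA and 0.466% with vehicle, and those of HNRNPA3 took 1.52% with both drugs, 1.70% with HDAC3i, 1.62% with AZA and 1.70% with vehicle. Gene counts also pool productive transcripts with those carrying a premature stop. In the GENCODE 29 annotation all 11 tested SRSF genes and 13 of 21 HNRNP genes (61.9%) list a transcript marked for nonsense-mediated decay, against 43.4% of 12411 tested protein-coding genes. Isoforms were not analysed here, so how the lower totals divide between the kinds of transcript was not measured.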

How the data were processed

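RNA of 12 libraries of 1 cell line was sequenced, 3 per group. The submitters' processing notes name STAR 2.7.11b, cutadapt 5.1, Subread 2.1.2, FastQC 12.1 and bcl2fastq 2.17.1.14, and build GRCh38. What the authors deposited are expected counts, unscaled. They were made with featureCounts 2.1.1 per the file headers, for 78892 genes of the release 114 annotation, without strand and with reads of several places split into fractions, and 96.9% of values were whole within 1e-06. Counting by single reads or by pairs is not settled by the header, and 4 of the 16 libraries it lists were not analysed here. Symbols were matched by Ensembl ID for 61461 genes and gene types from GENCODE 29 for 57340.

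Counts were rounded and analysed in R 4.3.3 with edgeR 4.0.16. The filterByExpr function kept 17869 genes with 99.93% of the counts. TMM factors were 0.966 to 1.03. A quasi-likelihood fit over the 4 groups (glmQLFit, glmQLFTest, 2-sided) gave each comparison, with p-values adjusted by Benjamini-Hochberg over all tested genes and calls at an adjusted p under 0.05. The biological coefficient of variation was 6.05%. CPM are TMM-scaled counts per 1000000, and those of cell type markers are per library total. Standard errors are the log2 fold change divided by the root of its F statistic. The scripts were tested on simulated data.

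All SRSF and HNRNP genes are accounted for. From each list the 2 genes of smallest adjusted p for HDAC3i against vehicle are named, except 1 that is not reported here, with MYC, HDAC3, DNMT1 and the markers. Genes of small counts, and PRMT2, RBM8A, PNN, LUC7L3, PRPF4B and MBNL3, were named after their values were seen. The members and lists were chosen with earlier results of these data known. Alternatives were DESeq2 1.42.0 size factors and test, library totals, no filter, a filter of 5 CPM in 3 libraries, the replicate block, 2 libraries of highest mitochondrial share left out and each library left out in turn. Protein sequences were not used here.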

Additional observations from a re-analysis of the deposited data

Results flagged for a closer look

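In 5 of the 154 tested genes of the related lists the effect of AZA differed between cells with and without the inhibitor, by the interaction term of edgeR's quasi-likelihood test, against 0.453% of all 17869 tested genes called lower and 0.263% higher. All 5 had values below 0, meaning that AZA lowered the gene more, or raised it less, on top of the inhibitor. RBM25, a splicing regulator of the U1 snRNP, averaged 147 ± 14.5 CPM with both drugs, 184 ± 8.83 with HDAC3i, 273 ± 6.90 with AZA and 244 ± 6.76 with vehicle (SD, n = 3 each), an interaction of -0.49 (SE 0.083) on the log2 scale with an adjusted p of 0.00503, and it passed in 19 of 19 alternatives. PNN (pinin), an exon junction protein, averaged 311 ± 46.0 CPM with both drugs, 403 ± 21.3 with HDAC3i, 470.0 ± 20.4 with AZA and 459 ± 6.55 with vehicle, with an interaction of -0.41 (SE 0.097) and an adjusted p of 0.0405. LUC7L3, a U1 snRNP-associated SR-related protein, had an interaction of -0.37 (SE 0.091) and an adjusted p of 0.0462. PRPF4B, a kinase of spliceosomal proteins, had an interaction of -0.37 (SE 0.079) and an adjusted p of 0.0228, and MBNL3, a muscleblind family regulator, one of -0.44 (SE 0.092) and 0.0228. PNN, LUC7L3, PRPF4B and MBNL3 passed in 8, 8, 10 and 11 of the 19 alternatives, with adjusted p reaching 0.164, 0.173, 0.0824 and 0.0842 at most. Of the 32 SRSF and HNRNP genes 0 passed by edgeR, 3 were under an unadjusted p of 0.05 and 1 passed by DESeq2. SRSF11 passed in 3 and SRSF10 in 4 of the 19 alternatives. Mitochondrial transcripts also took the highest share of counts in the libraries with both drugs, 12.5% to 15.3%, and AZA replicate 1 stood apart in its group. The libraries with both drugs also differed more from each other than those with HDAC3i or with vehicle did. The part of these features in the interaction values was not tested.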

How the results depend on the processing

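No call on an SRSF or HNRNP gene reversed in the 19 alternatives. Over these genes and the 6 comparisons, 3524 values kept their direction and side of the threshold, 86 lost a call and 38 gained one. Genes lowered by HDAC3i numbered 16 to 19 with single libraries left out and 14 with a filter of 5 CPM in 3 libraries in place of 17, and those lowered by both drugs 23 to 26 and 19 in place of 25. That filter raised the members' median log2 fold change by 0.07 for HDAC3i and by 0.08 for both drugs. Genes raised by HDAC3i numbered 1 to 2 with single libraries left out. The 4 genes lowered by AZA against vehicle became 1 with DESeq2 size factors, 2 with library totals, 1 without a filter, 2 with the replicate block and 1 to 5 with single libraries left out. The 4 lowered by both drugs against HDAC3i became 1 to 6 with single libraries left out. For the interaction the count of 0 became 2 without a filter, 1 with DESeq2's test, 1 without the 2 libraries of highest mitochondrial share and 0 to 2 with single libraries left out. The cause of these changes was not tested. No pairing of the libraries by the replicate numbers of the titles was seen. The deviations of the 18 same-numbered pairs, taken over all tested genes, correlated at -0.06 to 0.07. A pairing that touches few genes could be lost in such a correlation, so the check cannot exclude one. The library names carry other numbers, so that vehicle replicate 2 and AZA replicate 3 are both numbered 3 there. Over all pairs of libraries from different groups the correlations also ran from -0.06 to 0.07. The replicate block used the title numbers, and a block by library number was not fitted. Depth was ample for the tested genes, and SRSF12 and the genes at 0 counts could not be read.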
